A study of Drosophila melanogaster with 7 samples.

Results

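The genes described here are 47 members of the homeodomain and paired-box families of transcription factors, chosen by symbol from the 16764 genes listed for each sequencing run. Homeodomain proteins bind DNA through a short helical domain, and paired-box (Pax) proteins carry a second, different DNA-binding domain with or without a homeodomain. In the fly nervous system these factors are known for setting up the identity of neurons and glia during development, and many remain switched on in the adult cell. The members fall into named classes, among them POU factors (*acj6*, *nub*, *pdm2*, *pdm3*, *vvl*), LIM factors (*ap*, *Awh*, *Lim1*, *Lim3*, *tup*), Pax factors (*ey*, *toy*, *Poxn*, *eyg*, *toe*, *gsb-n*), Iroquois factors (*ara*, *caup*, *mirr*), NK-like factors and paired-like factors. The questions were which members were higher or lower in which cell class of the brain, how many were present together in a neuron cluster, and which pairs were found in the same neuron.

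The data came from 7 runs of droplet single-cell RNA sequencing (10x Genomics 3′), each prepared from central brains that were pooled from males aged 4 to 9 days. The flies belonged to 10 DGRP lines, inbred wild-derived lines with known genomes. The deposited table lists 48 combinations of line and condition, 24 collected in sleep and 24 in wakefulness, including sleep deprivation, yoked controls and sleep induced with gaboxadol. Flies of run 1 were taken at ZT8 and ZT20, of runs 2 and 3 at ZT2 and ZT20, of run 4 at ZT2 and ZT14, of run 5 at ZT20, and of runs 6 and 7 at ZT8, where ZT is zeitgeber time in hours. No file analysed here joins a cell to a line, a time or a sleep state, so every value belongs to a whole run and the 7 runs are the replicates. They are separate libraries that share lines, and the p-values measure the spread between these libraries.

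The runs held 49949595 to 311443505 unique molecular identifiers (UMIs, counted transcripts) with a median of 3661 to 6902 UMIs per barcode. Runs 2, 3 and 4 held no barcode below 2658, 2676 and 2914 UMIs, whereas the other 4 runs went down to 500 UMIs. Of 160991 distinct barcodes, 3011 occurred in more than one run, and a run shared 440 to 1313 of its barcodes with the others. After removal of poor barcodes and called doublets, 123635 cells were left, of which 108750 were neurons in 243 clusters and 8941 were glia in 7 clusters. Another 5533 cells lay in 8 clusters with neuronal and glial markers together and were left out. The clusters were built without the 47 members, so that no member's level decided where a cell was placed, and no member was among the marker genes.

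Clusters were named from markers, and each name below means cells like that type. They were 13138 Kenyon cells (KCs, the intrinsic neurons of the mushroom body), 1330 dopaminergic neurons (DANs), 427 serotonergic (5-HT) neurons, 324 octopaminergic or tyraminergic (Oct/Tyr) neurons, 457 clock neurons and 886 ring neurons of the ellipsoid body. The glia included 1874 astrocyte-like glia (ALG), 1461 ensheathing glia (EG) and 422 perineurial glia (PG). No cluster carried enough markers of antennal lobe projection neurons. In their place, the cluster with the highest level of the projection neuron marker *Oaz* (931 cells, called the Oaz cluster) was compared, a choice made after the clusters had been seen. Neurons were also sorted one by one by the transmitter genes whose normalized log level passed the limits of the study (*VAChT* 0.5, *VGlut* 0.5, *Gad1* 0.4). This gave 23374 cholinergic (*VAChT*), 10030 glutamatergic (*VGlut*) and 8994 GABAergic (*Gad1*) cells. The 48729 neurons that passed for several of these genes, the 4485 that passed for none and the KCs were left out of that comparison.

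The members held 2281929 of 815438544 UMIs, or 0.280%, and *hth*, *onecut* and *toy* accounted for 48.5% of them. At the other end, *al*, *gsb-n* and *toe* had 4, 9 and 43 UMIs in all cells. These 3 genes, and *eyg* and *vnd* with 204 and 292 UMIs, did not reach the filter on low counts in any comparison of cell types, and *lab* (527 UMIs) reached it in 8 of 11. A member could pass this filter through the class where it was high, so the counts below describe the members tested and do not show that the family as a whole differs from other genes. Levels are given as CPM, the UMIs of a gene scaled to a common total of UMIs of the class in a run, as the lowest, median and highest of the 7 runs. Differences are log2 fold changes with their standard error (SE) from the quasi-likelihood test of edgeR with the run as a block, and a gene was called when its Benjamini-Hochberg adjusted p over all genes was below 0.05 and its log2 difference was at least 1 in size. With transposon copies set aside, *acj6*, *hth*, *pdm3*, *Ptx1* and *tup* overlap other annotated genes on the same strand, and reads from the shared stretches could be split or lost, which makes their levels less certain.

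Of the 47 members, 38 were called higher in at least 1 of the 11 comparisons of cell types and 15 in exactly 1. Of the 8883 genes tested in any of these comparisons, 36.4% were called higher in at least 1 and 27.4% in exactly 1. The 9 members without a call of higher were the 5 genes tested nowhere and *exd*, *Lim3*, *onecut* and *Ptx1*. *exd* (extradenticle, a cofactor of HOX proteins) was called in no comparison, in either direction, although in glia it was lower in every run by less than the limit. *onecut*, a CUT-class factor, was called lower in glia alone and called in no comparison between neurons. The heatmap of levels shows these 2 genes as nearly even bands across the neuron classes, whereas *Poxn*, *ey* and *C15* stand out in a single column.

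**Figure D1:**
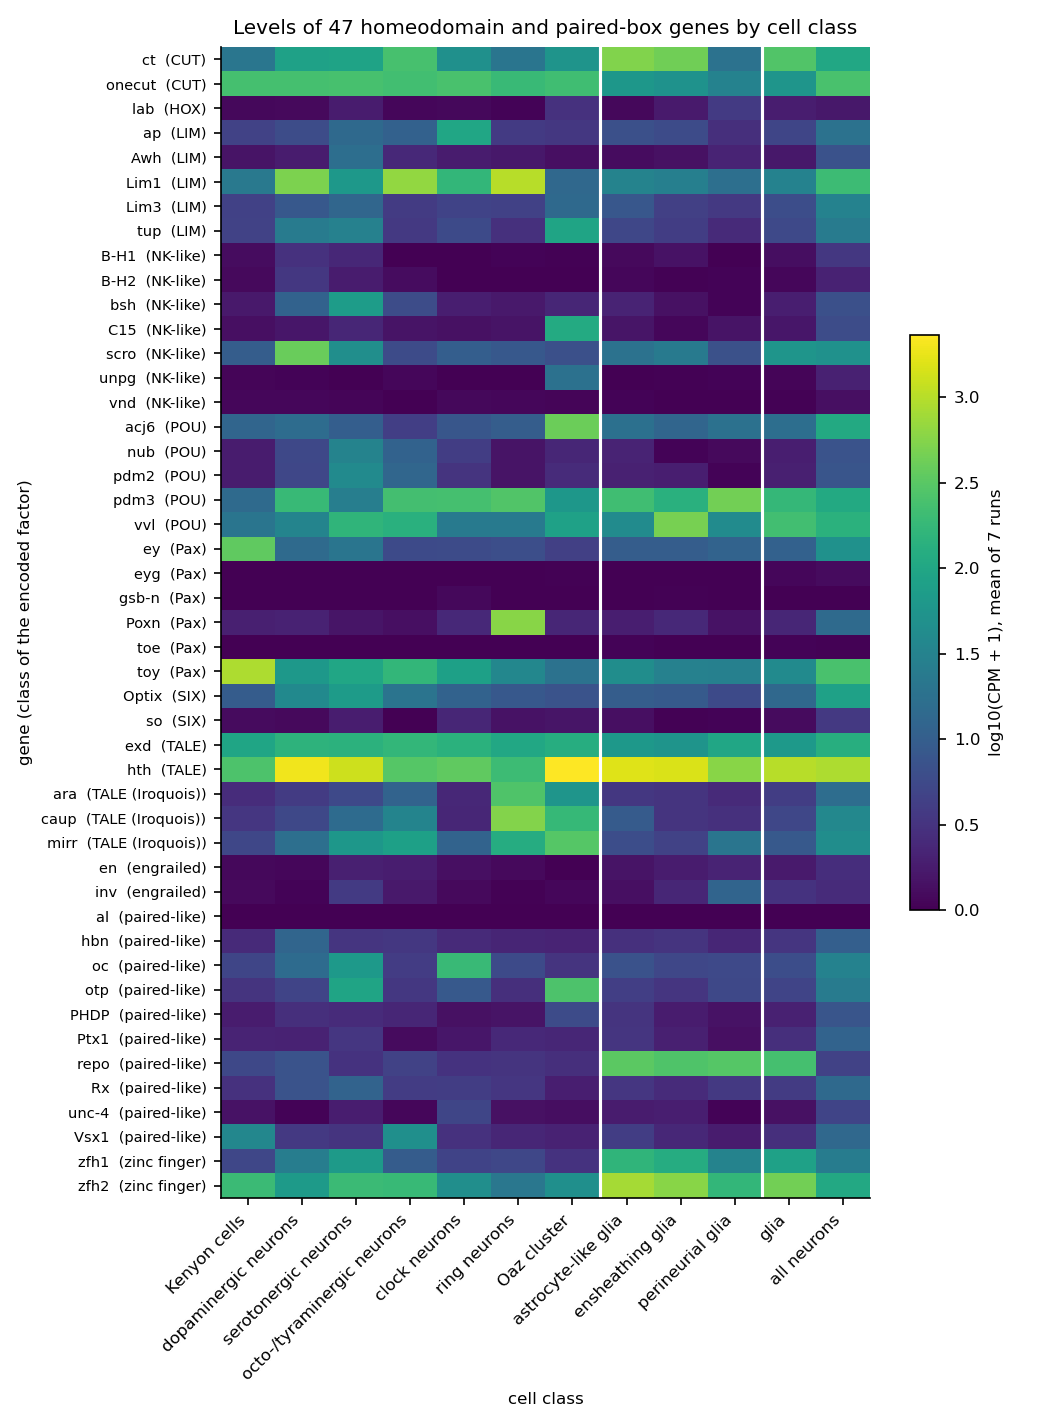
Mean level over 7 runs of each of the 47 members (rows, grouped by class of the encoded factor) in 7 neuron classes, 3 glial classes, all glia and all neurons (columns), as log10(CPM + 1). *repo* is bright in the glial columns only, *Poxn* in ring neurons, *ey* and *toy* in Kenyon cells, and *onecut* and *exd* differ little between the neuron columns.

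In glia, *repo* and a few other members were higher than in neurons, and most other members were lower. Of 42 members tested, 7 were called higher in glia (21.7% of all 8604 genes tested were) and 30 were called lower (18.4% of all genes). The share of members called higher was close to that of all genes and does not set the members apart. The share called lower was above that of all genes. The median log2 difference was −1.78 over the tested members and −0.06 over all genes. *repo*, which directs glial fate, had 194, 233 and 289 CPM (lowest, median and highest run) in glia, against 1.44, 1.87 and 7.53 CPM in neurons. Every glial run lay above every neuronal run, with a log2 difference of 6.91 (SE 0.51, adjusted p = 3.52e-06).

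The other members called higher in glia included 2 zinc finger homeodomain genes, *zfh2* and *zfh1*, and the CUT gene *ct* (cut, a regulator of sensory organ identity and dendrite shape). The POU genes *pdm3* and *vvl*, and *inv*, were called higher as well. *zfh2* had 372, 434 and 511 CPM in glia and 77.6, 97.5 and 133 CPM in neurons (log2 difference 2.63, adjusted p = 1.04e-06). *zfh1* had 68.2, 81.9 and 109 CPM in glia and 20.3, 24.1 and 32.7 CPM in neurons, a log2 difference of 2.29. *ct* had 244, 267 and 326 CPM in glia, against 83.8, 99.1 and 133 CPM in neurons, a log2 difference of 1.99. These 3 genes did not overlap between glia and neurons in any run. The differences of *pdm3* (1.21) and *vvl* (1.17) were closer to the limit, and *inv* overlapped between the classes and was higher in 5 of 7 runs. Glia and neurons differed in composition enough that the scaling moved the median gene by 0.53 on the log2 scale. With plain library totals in place of TMM factors, *pdm3*, *vvl* and *inv* were no longer called, and the members counted 4 higher and 31 lower. All genes then counted 1399 higher and 2799 lower, against 1866 higher and 1585 lower with TMM factors. *vvl* was also below the limit with runs 1 to 4 alone (0.88) and with called doublets kept (0.92).

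Among the 3 named glial classes, *repo* averaged 333 ± 126 CPM in ALG, 273 ± 59.3 CPM in EG and 304 ± 46.6 CPM in PG (SD, n = 7 runs), and the runs of the 3 classes overlapped. *ct* averaged 534 ± 161 CPM in ALG and 436 ± 68.8 CPM in EG, but 17.4 ± 14.1 CPM in PG. *vvl* averaged 469 ± 122 CPM in EG, and 41.1 ± 20.9 CPM in ALG and 40.6 ± 23.6 CPM in PG. The lowest EG run of *vvl* (330 CPM) lay above the highest run of ALG (68.9 CPM) and of PG (65.8 CPM). All neurons had 118, 141 and 155 CPM of *vvl* (lowest, median and highest run). Every ALG and PG run was thus below neurons, and *vvl* was higher in EG alone among these 3 classes. The *ct* mean in PG was likewise below the lowest run of neurons (83.8 CPM). *pdm3* was highest in PG, with 450 ± 76.6 CPM in PG, 217 ± 63.2 CPM in ALG and 137 ± 23.0 CPM in EG. *zfh2* averaged 814 ± 164 CPM in ALG, 589 ± 97.6 CPM in EG and 168 ± 50.3 CPM in PG. No test was run between the glial classes.

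Members that fell in glia had 15.5% of their neuronal level in CPM in the median member (9.49% to 24.4%). CPM do not carry the TMM factors. The log2 differences do, and were smaller in size than these CPM ratios. Among them were *Lim1* with 16.3, 23.5 and 52.7 CPM in glia, against 174, 204 and 249 CPM in neurons, and *caup* (log2 difference −2.45). *onecut* had 25.5, 41.1 and 103 CPM in glia, against 208, 257 and 291 CPM in neurons. *en*, *exd*, *hth*, *lab* and *scro* were tested and not called. Yet *exd* had 44.1, 61.1 and 84.7 CPM in glia, against 126, 129 and 137 CPM in neurons, without overlap. Its log2 difference was −0.50 (edgeR adjusted p = 5.41e-04), which is less than the limit of 1 in size. *hth* (homothorax, the partner of *exd*) had 849, 975 and 1158 CPM in glia and 790, 896 and 959 CPM in neurons, and the runs overlapped.

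Free RNA gives UMIs in cells that do not express a gene. Shares of cells were therefore read beside a class low in the gene, after thinning every cell to 1000 UMIs. That class was picked gene by gene, and other classes could hold larger shares. *repo* was found in 20.01 ± 3.5% of thinned glia and 0.482 ± 0.33% of thinned neurons (SD, n = 7 runs). Without thinning the shares were 36.7% of glia and 3.05% of neurons, with median depths of 2774 and 5326 UMIs. Of the thinned glia, 27.6% of ALG, 22.9% of EG and 25.0% of PG had a *repo* UMI. *inv* was found in 0.104% of thinned glia and 0.112% of thinned neurons. By glial class it was in 1.10% of thinned PG, 0.0803% of EG and 0.0633% of ALG. Thinning left out 2728 glia with fewer than 1000 UMIs and 2380 neurons. Of the named glia it left out 85 ALG, 9 EG and 0 PG, so most of the shallow glia were in clusters without a named glial type. The median depth was 5059 UMIs in KCs, 4822.5 in DANs, 9998 in 5-HT neurons, 6629 in clock neurons, 8880.5 in ring neurons, 5088 in cholinergic and 4515.5 in glutamatergic neurons, which applies to the unthinned shares below.

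KCs were set apart by the Pax genes *ey* and *toy*, the fly counterparts of vertebrate *Pax6*, which are known for eye development and for the mushroom body. Of 42 members tested, 4 were called higher in KCs (5.64% of all genes were) and 35 lower (12.2% of all genes). *ey* had 279, 352 and 420 CPM in KCs and 11.4, 13.0 and 19.4 CPM in other neurons, a log2 difference of 4.59 (SE 0.16, adjusted p = 3.46e-08). *toy* had 601, 961 and 1155 CPM in KCs and 161, 176 and 219 CPM in other neurons, a difference of 2.30 (SE 0.06). For both genes the lowest KC run was above the highest run of other neurons. *Vsx1*, a paired-like gene known from visual system development, had 27.7, 35.1 and 41.0 CPM in KCs and 9.16, 9.69 and 12.4 CPM in other neurons (1.78, SE 0.07). *zfh2* had a difference of 1.08, which was 0.94 and not called when called doublets were kept. *ey* was found in 28.8 ± 3.5% of thinned KCs and 0.845 ± 0.69% of thinned glia, and in 77.4% of KCs without thinning.

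All but 3 of the other members tested fell in KCs, to 10.8% of the level in other neurons in the median member (6.16% to 28.0%). No run overlapped for any of the 35, all of which had already been called lower. The share of all genes without overlap is not given here. *caup* had the largest decrease among the 35 in terms of its remaining level, with 0.417, 1.41 and 5.40 CPM in KCs, against 31.2, 38.1 and 46.999 CPM in other neurons. *Lim1* had 7.79, 12.7 and 55.6 CPM in KCs and 188, 225 and 277 CPM in other neurons. *hth* kept the largest share, with 211, 240 and 374 CPM in KCs and 860, 958 and 1021 CPM in other neurons (log2 difference −1.85). The members not called were *repo* (0.31), *onecut* (−0.09) and *exd* (−0.47). The median log2 difference was −2.67 over the tested members and 0.00 over all genes.

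**Figure D2:**
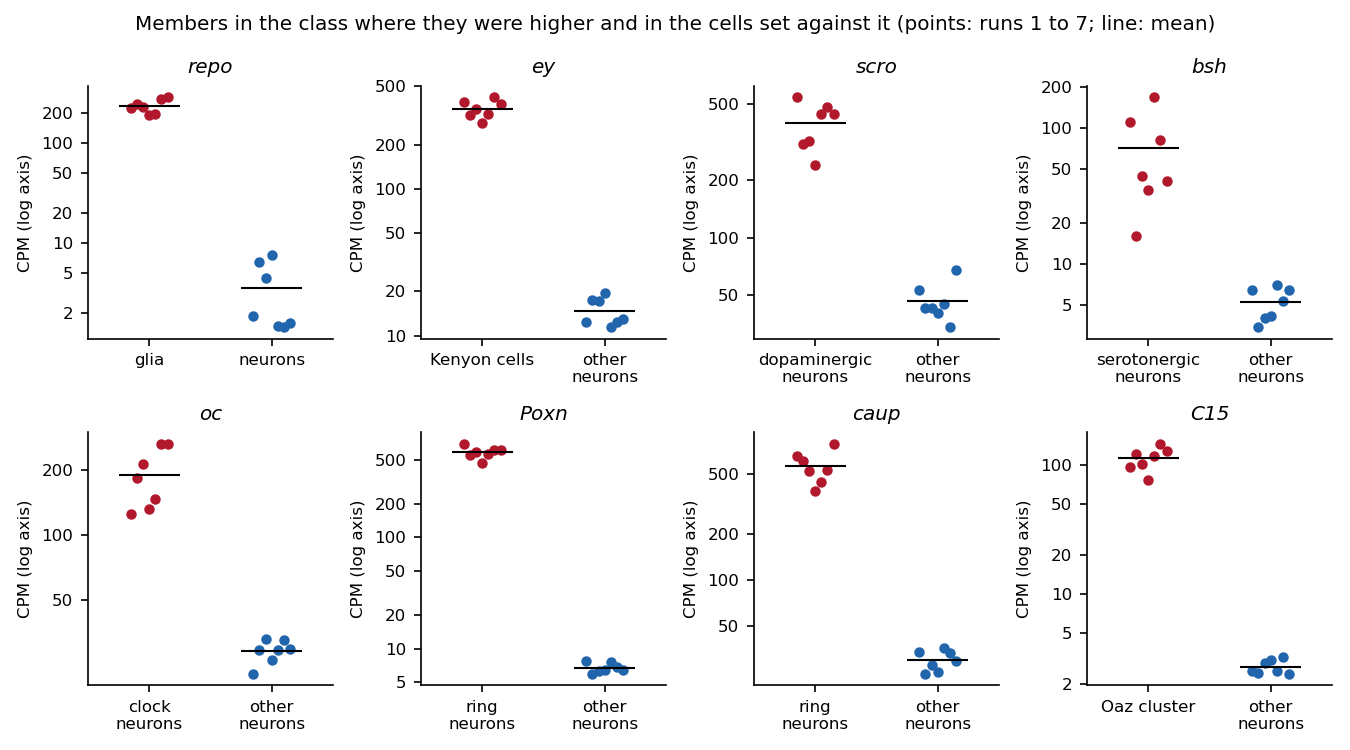
Level in CPM (log axis) of 8 member and class combinations in each of 7 runs (points, with the mean as a line), in the class where the member was called higher (left) and in the cells it was compared with (right). In every panel the lowest run of the class lies above the highest run of the other cells, with the widest spread for *bsh* in serotonergic neurons (16.03 to 168 CPM).

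Among monoaminergic neurons, DANs were marked by *scro* (scarecrow, the counterpart of vertebrate *Nkx2.1*). Of 42 members tested, 4 were called higher in DANs (2.16% of all genes were) and 21 lower (4.88% of all genes). With called doublets kept, 2 were higher, and the share of all genes under that setting is not given. *scro* had 240, 441 and 540 CPM in DANs and 34.2, 42.9 and 68.2 CPM in other neurons, a log2 difference of 3.01 (SE 0.11, adjusted p = 1.94e-12). It was found in 36.9 ± 8.4% of thinned DANs, 0.901 ± 0.64% of thinned KCs and 5.61 ± 1.6% of all thinned neurons, and in 74.8% of DANs without thinning. *Lim1* had 305, 527 and 711 CPM in DANs and 172, 201 and 245 CPM in other neurons (1.24, SE 0.07). *hth* had 1343, 2107 and 2370 CPM in DANs and 780, 891 and 948 CPM in other neurons (1.09, SE 0.07). Both differences fell below the limit with called doublets kept (*Lim1* 0.85 and *hth* 0.66), and *hth* was also below it with runs 1 to 4 alone (0.96). The call of *bsh* rested on 5 of 7 runs, with overlapping values. The largest decreases among genes above 20 CPM in other neurons were those of *caup* (−2.70) and *acj6* (−2.60), and *toy* had 34.7, 48.3 and 96.2 CPM in DANs, against 209, 251 and 326 CPM in other neurons.

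In serotonergic neurons, 7 of 42 members tested were called higher (1.64% of all genes were) and 14 lower (3.48% of all genes). *bsh* was the one also called higher in DANs. With runs 5 to 7 alone 9 members were lower, and no share of all genes is given for those runs. *bsh* (brain-specific homeobox, known for the identity of optic lobe neurons) had 16.03, 44.2 and 168 CPM in 5-HT neurons and 3.44, 5.36 and 6.96 CPM in other neurons (log2 difference 3.51, SE 0.23, adjusted p = 7.96e-09). The paired POU genes *pdm2* and *nub*, neighbours in the genome with roles in neuroblast timing and the wing, rose together. *pdm2* had 18.3, 34.9 and 72.4 CPM in 5-HT neurons and 5.31, 6.68 and 7.32 CPM in other neurons (2.55, SE 0.20), and *nub* had 15.3, 26.5 and 72.4 CPM in 5-HT neurons and 5.47, 6.23 and 6.58 CPM in other neurons (2.23, SE 0.24). *otp*, whose vertebrate counterpart is known for neuroendocrine neurons of the hypothalamus, had 39.1, 82.6 and 174 CPM in 5-HT neurons and 19.4, 23.1 and 31.5 CPM in other neurons (1.80, SE 0.15). *zfh1* rose by 1.41 without overlap. *oc* (1.19, higher in 6 of 7 runs) and *Awh* (1.297) overlapped between the classes, and *Awh* was not called when clusters were made at a resolution of 16 (0.12). The 5-HT class had 29 to 121 cells per run, and *bsh* was found in 6.14 ± 5.1% of its thinned cells, against 0.0668 ± 0.082% of thinned KCs. *pdm3* fell to 6.11, 28.4 and 46.8 CPM in 5-HT neurons, against 88.5, 104 and 132 CPM in other neurons.

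In Oct/Tyr neurons, 3 of 42 members tested were called higher (3.91% of all genes were) and 20 lower (6.72% of all genes). Without run 4, 5 were called higher, and with runs 5 to 7 alone 13 were called lower. The shares of all genes in these subsets of runs are not given, so the changes may not be particular to the members. *Lim1* had 393, 678 and 997 CPM in Oct/Tyr neurons and 173, 201 and 245 CPM in other neurons (log2 difference 1.62, SE 0.09, adjusted p = 2.51e-11). *Vsx1* had 17.0, 36.1 and 101 CPM in Oct/Tyr neurons and 11.2, 12.5 and 14.4 CPM in other neurons (1.75, SE 0.24). *ct* had 171, 220 and 383 CPM in Oct/Tyr neurons and 82.9, 98.5 and 132 CPM in other neurons (1.13, SE 0.11), but its difference was 0.57 to 1.00 and not called with runs 1 to 4 alone, with either of the other clustering resolutions and with called doublets kept. *hth* moved the opposite way from DANs, with 209, 301 and 364 CPM in Oct/Tyr neurons and 791, 900 and 963 CPM in other neurons (−1.62). *acj6* was reduced most among members above 20 CPM in other neurons, to 0, 2.18 and 11.4 CPM in Oct/Tyr neurons, against 99.3, 109 and 124 CPM in other neurons. *B-H1* and *so* had 0 UMIs in the 324 cells, at least 3.17-fold and 3.23-fold lower than in other neurons by the limit of 3 UMIs over the 7 runs. With 14 to 90 cells per run, low members were read from few UMIs.

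In clock neurons, 2 of 42 members tested were called higher (3.69% of all genes were) and 32 lower (5.42% of all genes). *oc* (ocelliless, also called orthodenticle, known for head and brain development) had 126, 185 and 266 CPM in clock neurons and 22.6, 29.0 and 32.7 CPM in other neurons (log2 difference 2.65, SE 0.10, adjusted p = 1.02e-13). *ap* (apterous, a LIM factor known for the dorsal wing and for peptidergic neurons) had 68.6, 94.4 and 149 CPM in clock neurons and 14.1, 17.0 and 24.3 CPM in other neurons (2.45, SE 0.13). Neither gene overlapped in any run. *oc* was found in 20.4 ± 4.3% of thinned clock neurons, 0.403 ± 0.33% of thinned KCs and 2.75 ± 0.30% of all thinned neurons. Without thinning it was in 58.4% of clock neurons. *caup* fell to 0, 0 and 6.30 CPM in clock neurons, against 28.6, 34.5 and 42.3 CPM in other neurons. *B-H1*, *B-H2* and *unpg* had 0 UMIs in 457 clock neurons, which put them at least 3.24-fold, 1.46-fold and 1.42-fold lower than in other neurons, and the calls of *B-H2* and *unpg* were lost under most alternatives.

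Ring neurons, known as GABAergic cells of the ellipsoid body, had the largest log2 difference of any member among the named neuron types. Of 42 members tested, 6 were called higher (5.13% of all genes were) and 33 lower (11.6% of all genes). *Poxn* (Pox neuro, known from chemosensory bristles) had 464, 589 and 692 CPM in ring neurons and 5.99, 6.46 and 7.75 CPM in other neurons, a log2 difference of 6.45 (SE 0.07, adjusted p = 1.43e-19). It was found in 41.9 ± 5.0% of thinned ring neurons and 0.132 ± 0.15% of thinned glia, and in 90.7% of ring neurons without thinning. All 3 Iroquois genes rose. *ara* had 213, 262 and 349 CPM in ring neurons and 8.54, 11.7 and 14.7 CPM in other neurons (4.55, SE 0.11), and *caup* had 386, 531 and 782 CPM in ring neurons and 24.3, 29.5 and 35.7 CPM in other neurons (4.23, SE 0.10). *mirr* had 75.4, 129 and 152 CPM in ring neurons and 35.4, 41.8 and 51.8 CPM in other neurons (1.52, SE 0.10). These 3 genes were in fewer ring neurons than *Poxn*. Without thinning, *ara* was found in 51.9%, *caup* in 53.8% and *mirr* in 33.3% of ring neurons. Their levels are thus means over cells with and without a UMI of the gene.

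*Lim1* had 860, 1032 and 1135 CPM in ring neurons and 167, 194 and 236 CPM in other neurons (log2 difference 2.40, SE 0.04), and was found in 58.2 ± 4.8% of thinned ring neurons. *pdm3* had 238, 287 and 312 CPM in ring neurons and 86.6, 101 and 129 CPM in other neurons (1.42, SE 0.07). None of the 6 overlapped between ring neurons and other neurons. *hth* fell to 145, 183 and 269 CPM in ring neurons, against 796, 903 and 969 CPM in other neurons, and the members that fell had 11.4% of the other neurons' level in the median member (0% to 22.7%). *exd* (−0.32), *onecut* (−0.37) and *repo* (−0.45) were not called. *unpg* and *B-H2* had 0 UMIs in 886 ring neurons, at least 3.29-fold and 3.38-fold lower than in other neurons.

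The Oaz cluster had 10 of 42 tested members called higher (5.07% of all genes were) and 26 lower (10.5% of all genes), the most members called higher in any neuron cluster compared with other neurons. Its cells were deeper than those of any other class described here (median 16273 UMIs). *C15* (clawless, known from the leg tip) had 77.1, 117 and 146 CPM in the Oaz cluster and 2.42, 2.54 and 3.26 CPM in other neurons (log2 difference 5.22, SE 0.11, adjusted p = 7.41e-16). *unpg* (unplugged) had 7.92, 16.1 and 26.8 CPM in the Oaz cluster and 0.499, 0.747 and 0.881 CPM in other neurons (4.49, SE 0.21). *otp* had 198, 264 and 316 CPM in the Oaz cluster and 15.6, 18.3 and 25.9 CPM in other neurons (3.69, SE 0.05). All 3 genes were apart from other neurons in every run.

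Again the 3 Iroquois genes rose together in the Oaz cluster, with log2 differences of 2.92 for *mirr*, 2.39 for *caup* and 1.91 for *ara*. Their order differed from that in ring neurons, where *ara* and *caup* had the larger differences and *mirr* the smallest. *mirr* had 229, 309 and 340 CPM in the Oaz cluster and 32.6, 38.4 and 45.3 CPM in other neurons. *acj6*, the POU factor known for odour receptor choice and for wiring of olfactory neurons, had 321, 399 and 505 CPM in the Oaz cluster and 91.6, 98.7 and 115 CPM in other neurons (1.93, SE 0.07). The LIM gene *tup* (1.87) and *hth* (1.38) rose as well, and *lab* was called with overlapping runs on 27 UMIs. *Lim1* fell to 3.23, 15.2 and 23.6 CPM in the Oaz cluster, against 178, 207 and 254 CPM in other neurons, and *toy* to 2.87, 17.8 and 34.04 CPM, against 212, 253 and 328 CPM. *en* and *B-H2* had 0 UMIs in the cluster and were at least 9.90-fold and 6.54-fold lower than in other neurons. *C15* was found in 9.17 ± 2.0% of thinned cells of the cluster and 0.0456 ± 0.078% of thinned glia.

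The transmitter classes cut across these cell types, and each class was compared with the mean of the other 2 on the log scale. Cholinergic neurons had 13 of 41 tested members called higher (1.41% of all 7789 genes tested were) and 6 lower (1.22% of all genes). GABAergic neurons had 6 called higher (1.18% of all genes) and 16 lower (1.45% of all genes), and glutamatergic neurons had 8 higher (1.17% of all genes) and 8 lower (0.937% of all genes). The median log2 difference of the tested members was 0.19 in cholinergic, −0.02 in glutamatergic and −0.19 in GABAergic neurons, with medians over all genes of −0.00, 0.01 and −0.01. The 3 sets of differences share the same cells and are not independent of each other. Neurons that passed the limit for several transmitter genes were left out, and whether they hold more than one transmitter or free RNA was not tested.

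**Figure D3:**
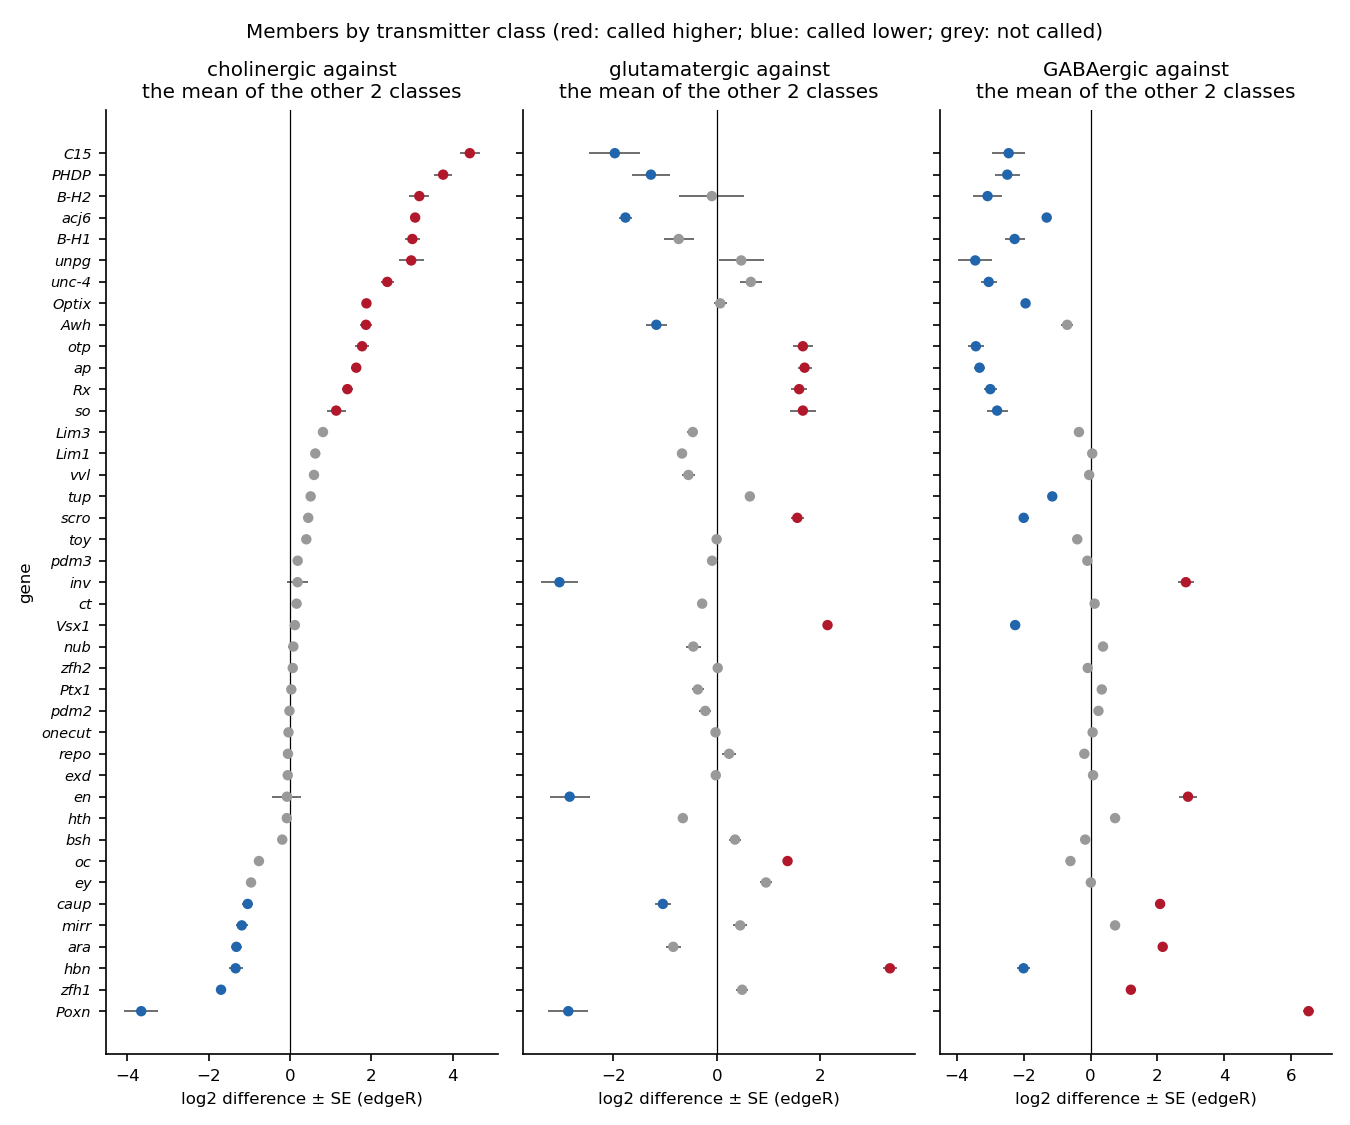
Log2 difference ± SE from edgeR (x axis) of the 41 tested members (y axis, ordered by the cholinergic value) for each transmitter class against the mean of the other 2 classes, from 7 runs. Red points were called higher, blue points lower and grey points neither. *C15*, *PHDP* and *acj6* are at the high end in cholinergic neurons, *hbn* in glutamatergic neurons and *Poxn* in GABAergic neurons.

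In cholinergic neurons, *acj6* had 173, 199 and 229 CPM, against 17.4, 20.6 and 29.6 CPM in the mean of the other 2 classes (log2 difference 3.08, SE 0.11, adjusted p = 2.56e-13). Its class means were 198 ± 18.3 CPM in cholinergic, 20.9 ± 6.0 CPM in glutamatergic and 24.3 ± 5.62 CPM in GABAergic neurons (SD, n = 7 runs). *Optix*, a sine oculis-type factor of eye and head development, had 102, 132 and 165 CPM in cholinergic neurons and 27.3, 36.3 and 59.1 CPM in the other 2 classes (1.88, SE 0.11). Rarer members had larger differences. *C15* had 7.94, 12.1 and 14.1 CPM in cholinergic neurons and 0.0539, 0.394 and 1.04 CPM in the other 2 classes (4.42, SE 0.25), and *PHDP*, a paired-like gene, had 9.89, 13.4 and 16.5 CPM in cholinergic neurons and 0.259, 0.848 and 2.37 CPM in the other 2 classes (3.77, SE 0.21). The Bar genes *B-H2* (3.18) and *B-H1* (3.01), *unpg* (2.98), *unc-4* (2.39) and *Awh* (1.87) rose too, all without overlap. *Poxn*, *zfh1* and the 3 Iroquois genes made up 5 of the 6 members that fell in cholinergic neurons, and the decrease of *caup* (−1.04) was below the limit under several alternatives. *acj6* was found in 13.1 ± 0.99% of thinned cholinergic cells, in 29.5 ± 3.2% of the thinned Oaz cluster and in 1.21 ± 0.79% of thinned glia.

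In glutamatergic neurons, *hbn* (homeobrain, known from brain development) had 27.0, 37.0 and 41.5 CPM, against 2.00, 3.32 and 6.11 CPM in the other 2 classes (log2 difference 3.34, SE 0.14, adjusted p = 1.02e-11). *Vsx1* had 15.4, 19.8 and 22.8 CPM in glutamatergic neurons and 3.82, 5.24 and 6.45 CPM in the other 2 classes (2.14, SE 0.09). *oc* had 43.8, 57.4 and 68.8 CPM in glutamatergic neurons and 17.4, 23.2 and 25.9 CPM in the other 2 classes (1.37, SE 0.06), and *scro* had 61.2, 82.1 and 104 CPM against 22.0, 32.4 and 50.9 CPM (1.55, SE 0.12). These 4 genes did not overlap between the classes. *hbn* was found in 3.06 ± 0.77% of thinned glutamatergic cells and 0.136 ± 0.11% of thinned KCs.

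In GABAergic neurons, *Poxn* had 40.2, 52.3 and 85.7 CPM, against 0.159, 0.597 and 1.26 CPM in the other 2 classes (log2 difference 6.52, SE 0.17, adjusted p = 9.35e-15). The neighbouring genes *en* and *inv* (engrailed and invected, known for body segments) rose by 2.91 and 2.85. *caup* had 53.5, 103 and 128 CPM in GABAergic neurons and 16.1, 22.8 and 29.0 CPM in the other 2 classes (2.08, SE 0.13), *ara* rose by 2.16, and *zfh1* had 39.3, 54.3 and 68.0 CPM in GABAergic neurons and 21.6, 28.8 and 31.3 CPM in the other 2 classes (1.20, SE 0.11). *Poxn* in GABAergic neurons did not come from the named ring neurons alone. In cells of unnamed clusters only, a choice made after the values had been seen, its log2 difference was 5.70, and that of *C15* in cholinergic neurons was 3.31.

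A further 4 members, *otp*, *ap*, *Rx* and *so*, were called higher in both cholinergic and glutamatergic neurons. Each contrast is with the mean of the other 2 classes, and these genes were lowest in GABAergic neurons. *otp* averaged 35.7 ± 4.66 CPM in cholinergic, 32.8 ± 7.61 CPM in glutamatergic and 2.86 ± 2.94 CPM in GABAergic neurons (SD, n = 7 runs). *ap* averaged 23.0 ± 5.61, 22.5 ± 3.97 and 1.98 ± 1.09 CPM and *Rx*, the counterpart of the vertebrate retinal gene *Rax*, 17.8 ± 4.4, 18.7 ± 3.29 and 2.03 ± 1.2 CPM in the same order of classes. *otp* fell below the limit in glutamatergic neurons (0.97) when whole clusters instead of single cells were given a transmitter. *exd* and *onecut* differed by less than 0.1 on the log2 scale in every transmitter class.

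Over 229 neuron clusters of at least 50 cells, a member was taken as present at 50 CPM or more in the pooled UMIs of the cluster. The median cluster then had 9 members present (range 4 to 16), the 229 clusters had 204 different sets of members, and 186 clusters (81.2%) had a set shared with no other cluster. At 25 CPM the median was 12 members and 197 clusters had their own set, and at 100 CPM it was 7 members and 159 clusters. Presence was also called separately in runs 1 to 4 and in runs 5 to 7. Of 10293 calls over 219 clusters with at least 20 cells on each side, 96.9% were equal, 88.4% of the members present in runs 1 to 4 were present in runs 5 to 7 and 95.1% of the reverse, and 51 clusters had the same whole set. The clusters were built without the members, but from other genes that may depend on them. No count of sets for other lists of genes is given beside these values. The number of sets is thus a description and not a trait shown to be particular to these members.

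The members ranged from general to restricted. *exd*, *hth* and *onecut* were present in all 229 clusters, *toy* in 158, *pdm3* in 144, *Lim1* and *zfh2* in 128 each, *ct* in 123 and *vvl* in 112. Presence in every cluster hid a wide span for *hth*, which reached 4037 CPM in its highest cluster (144 cells) and 418 CPM in the median cluster, whereas *exd* had 131 CPM in the median cluster and 199 CPM at most. *acj6* was present in 54 clusters, 47 of them cholinergic, 1 GABAergic and 0 glutamatergic, where 114 clusters were cholinergic, 27 glutamatergic, 31 GABAergic and 57 of no single class or KCs. *hbn* was present in 18 clusters, 12 of them glutamatergic. *ap* was present in 28 clusters, 24 of them cholinergic and 0 GABAergic. The 7 clusters with *Poxn* were 4 GABAergic and 3 of no single class, and the 4 clusters with *C15* and the 5 with *unc-4* were all cholinergic.

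**Figure D4:**
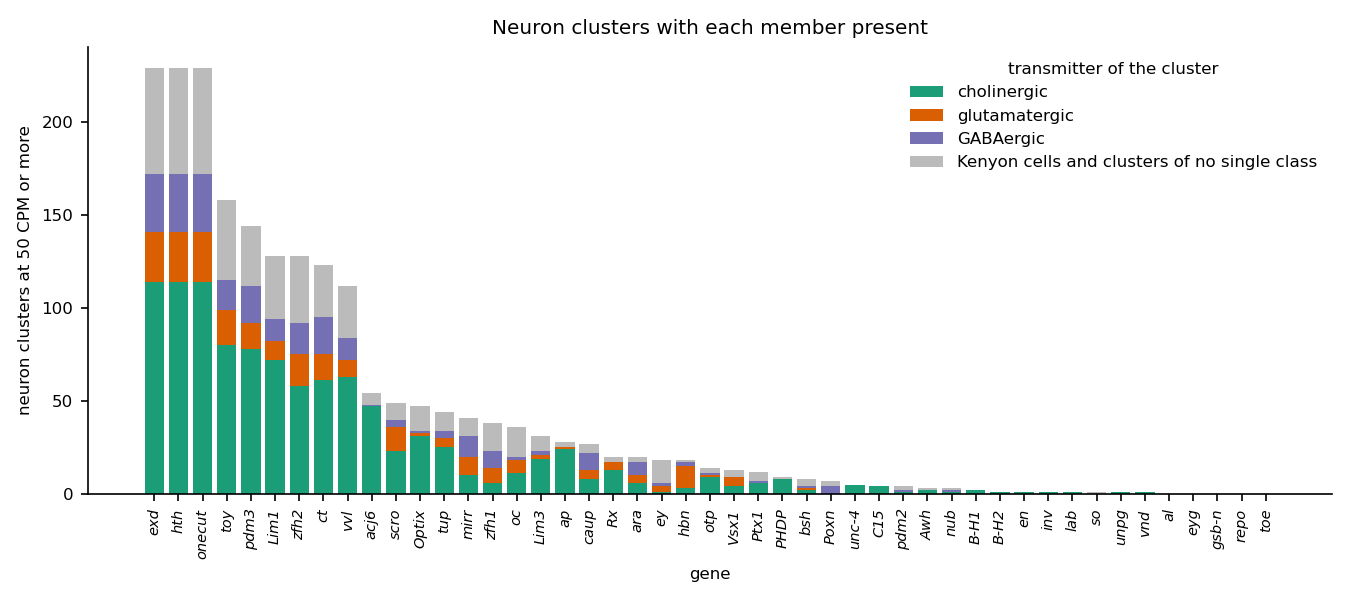
Number of the 229 neuron clusters (y axis) in which each member (x axis, ordered by that number) reached 50 CPM, with bars divided by the transmitter of the cluster. *hth*, *exd* and *onecut* reach 229, *acj6* bars are almost wholly cholinergic, and the right end holds members found in 1 cluster or none.

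At the restricted end, 7 members were present in exactly 1 cluster. *unpg* had 184 CPM in a cholinergic cluster of 144 cells, where 54.9% of the cells had a UMI, and 24.9 CPM in the next highest. *hth* was at its highest in the same cluster, which also had *caup* and *mirr* among its leading genes. *lab*, the HOX gene of the anterior head, had 72.7 CPM in a cluster of 260 cells and 9.25 CPM in the next, and *vnd*, an NK-like gene of ventral neuroblasts, had 62.1 CPM in a cluster of 169 cells and 8.55 CPM in the next. *otp* was the first of the leading genes of both the *lab* and the *vnd* cluster. *en* and *inv* were present in the same single cholinergic cluster (77.6 and 69.9 CPM, 287 cells), although both were called higher in GABAergic neurons over all cells. *B-H2* was present in 1 cholinergic cluster (55.7 CPM, 118 cells), which was also the highest of the 2 clusters with *B-H1* (124 CPM). *so* passed in 1 cluster at 51.9 CPM, just over the limit, with 49.5 CPM in the next. The 5 members present in none were *al*, *eyg*, *gsb-n*, *toe* and *repo*, and *repo* had at most 14.9 CPM in a neuron cluster.

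Pairs of members were counted in single neurons, for the 43 members with UMIs in at least 200 neurons. The number of neurons with UMIs of both genes was divided by the number expected if the genes were independent among neurons of like depth in the same run. Over 903 pairs the median ratio was 0.92. The ratio has a ceiling that is lower for common genes, reached when every neuron with the rarer gene also has the other. It was 82.9 for *en* and *inv*, 52.3 for *B-H1* and *B-H2* and 1.21 for *exd* and *hth*, so the order of the ratios also depends on how common the genes are. In every run, 44 pairs had more than 2 times the expected number, 206 pairs more than expected, and 370 pairs fewer. The ratios share libraries, depth and cells between pairs, and no p-value was computed. Called doublets had been removed before this count, by a step that did not leave the members out. How that removal moved the ratios is not given here.

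The 4 highest ratios belonged to pairs of related genes that lie next to each other in the genome. *en* and *inv* were found together in 286 neurons, against 8.52 expected, a ratio of 33.6 (26.4 to 43.2 in single runs). *B-H1* and *B-H2* were together in 355 neurons, against 12.4 expected (28.5, from 21.3 to 44.3), *nub* and *pdm2* in 1219, against 122 (9.97, from 9.01 to 11.9), and *ara* and *caup* in 3927, against 447 (8.79, from 7.06 to 14.5). By an Ensembl annotation of BDGP6, *en* is at chr2R:11524006-11528210 on the minus strand and *inv* at chr2R:11474465-11509695 on the plus strand, 14311 bases apart. *ara* (chr3L:12580672-12596018) and *caup* (chr3L:12609631-12621798) lie 13613 bases apart on the plus strand, *nub* (chr2L:12587625-12628135) and *pdm2* (chr2L:12657165-12686306) 29030 bases apart, and *B-H2* (chrX:17314581-17324175) and *B-H1* (chrX:17397478-17403278) 73303 bases apart. Among neurons with *ara*, 72.2% also had *caup*, and of those with *caup* 55.6% had *ara*. The 20 clusters in which *ara* was present were all among the 27 with *caup*. Reads that cannot be told apart between related genes could add to such a ratio, and this was not tested.

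**Figure D5:**
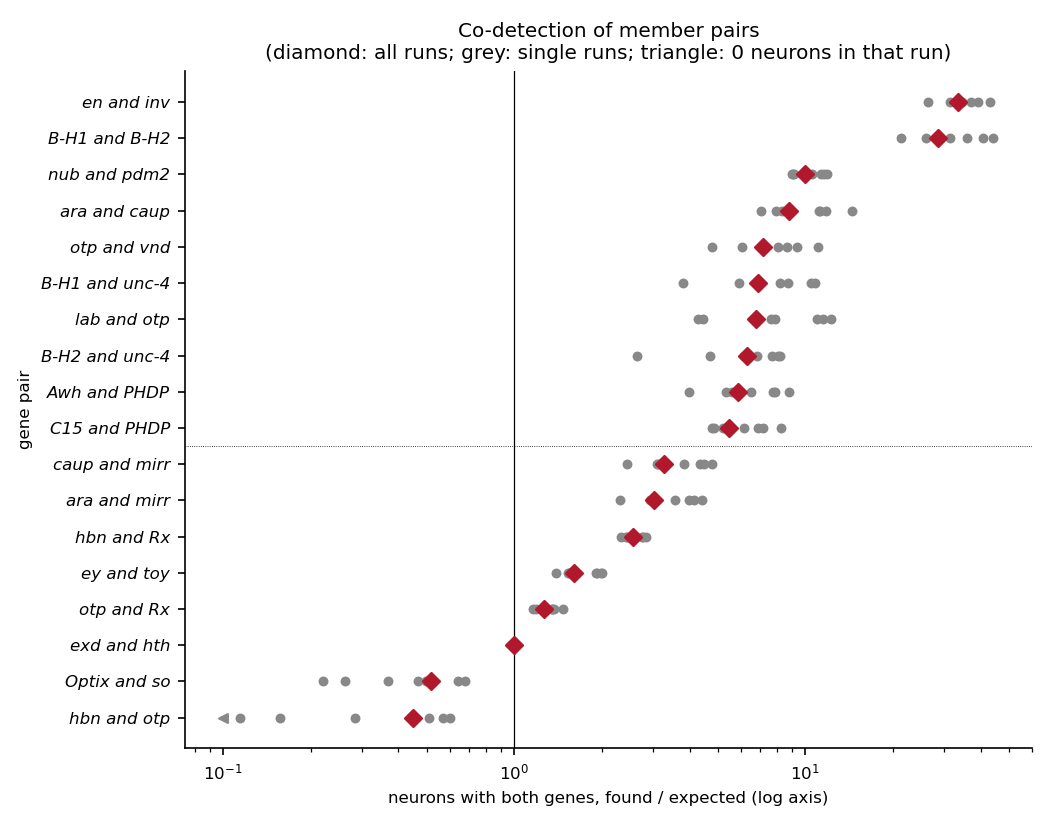
Ratio of found to expected neurons with UMIs of both genes (x axis, log axis) for the 10 pairs with the highest ratio (above the dotted line) and for other related or neighbouring pairs (below it). Diamonds give all runs together, grey points single runs and the triangle a run with 0 such neurons. *en* and *inv* have the highest ratio (33.6), *exd* and *hth* lie at 1.00, and *hbn* and *otp* lie below 1.

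Other related or neighbouring pairs had lower ratios. *mirr*, the third gene of the Iroquois complex, had ratios of 3.27 with *caup* and 3.01 with *ara*, at 71841 and 97621 bases from them. *hbn*, *Rx* and *otp* lie within one stretch of 2R, and *hbn* and *Rx* had a ratio of 2.56 at 17638 bases, *otp* and *Rx* of 1.27 at 13339 bases, and *hbn* and *otp* of 0.448 at 51254 bases. *ey* and *toy* had a ratio of 1.60, with 12780 neurons found and 7995 expected, and 75.4% of neurons with *ey* had *toy*. As these genes were in many neurons, the highest ratio they could have was 2.12. *Optix* and *so*, the sine oculis-type genes, were together less often than expected (0.517), below 1 in every run. *exd* and *hth*, whose proteins act as partners, had a ratio of 1.00, where the highest possible was 1.21, and both were present in every cluster.

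Among the 10 highest pairs, 6 joined genes that are not neighbours. *otp* was in 2 of them, with *vnd* (7.14, 99 neurons found and 13.9 expected) and with *lab* (6.75, 151 neurons found and 22.4 expected). *unc-4* was paired with *B-H1* (6.85) and *B-H2* (6.33), and *PHDP* with *Awh* (5.85) and *C15* (5.46). *unc-4*, *B-H1*, *B-H2*, *Awh*, *C15* and *PHDP* were all higher in cholinergic neurons, so the ratios were computed again in cholinergic cells alone, a choice made after they had been seen. They were 3.74 for *B-H1* and *unc-4*, 3.33 for *B-H2* and *unc-4*, 4.18 for *Awh* and *PHDP* and 2.74 for *C15* and *PHDP*, and 12.2 for *ara* and *caup* and 16.2 for *B-H1* and *B-H2*. The lowest ratios with at least 50 neurons expected were 0.184 for *inv* and *Rx*, 0.238 for *B-H2* and *Lim3* and 0.262 for *Awh* and *C15*. *Awh* and *C15* thus each paired with *PHDP* but were in the same neuron in 16 cells, where 61.1 were expected.

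The contrast of the flies' conditions that was tested over whole runs was between runs with ZT8 flies (runs 1, 6 and 7) and runs without (runs 2 to 5), in all neurons. Runs also differed in the other times and in their share of sleep, and splits by these were not tested. A gene was called here at an adjusted p below 0.05 alone, with no limit on the size of the difference. In the edgeR test 0 of 44 members tested were called in either direction, as were 0.0% of the 9759 genes, with a lowest adjusted p of 0.263 among members and among all genes. At an unadjusted edgeR p below 0.05, with no adjusted p below it, there were 1439 genes and 5 members, *pdm3* higher and *vvl*, *zfh1*, *zfh2* and *repo* lower in runs with ZT8 flies. *repo* had 1.87, 1.44 and 1.60 CPM in neurons of runs 1, 6 and 7, against 6.52, 4.45, 7.53 and 1.46 CPM in those of runs 2, 3, 4 and 5. Its edgeR log2 difference was −1.77 (SE 0.49, adjusted p = 0.263), and run 5 overlapped with the runs with ZT8 flies. The level of *repo*, a glial gene, in neurons was thus highest in the 3 runs without small barcodes, none of which held ZT8 flies, so that time, run and depth cannot be told apart. Without run 5, 542 genes were called higher and 827 lower of 10082, among them *bsh* higher (0.53) and *repo* (−2.07), *zfh1* (−0.59) and *zfh2* (−0.73) lower. By DESeq2, 27 genes were higher and 210 lower, among them *zfh1* and *zfh2*. In glia in place of neurons, 1 gene was called and no member.

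As a measure of the wider family, 49 further homeobox genes that are not members were counted, of which 31 were tested in KCs and 29 in each other comparison of cell types. In glia 5 of them were called higher (*CG34340*, also called *Drgx*, *CG34367*, *dve*, *Dll* and *Antp*) and 19 lower, where 21.7% of all genes were higher and 18.4% lower. In KCs 0 were higher and 27 lower (5.64% and 12.2% of all genes). In the Oaz cluster 0 were higher and 24 lower (5.07% and 10.5% of all genes). In ring neurons 2 were higher and 24 lower (5.13% and 11.6% of all genes), and in clock neurons 4 were higher and 19 lower (3.69% and 5.42%). In DANs 2 were higher and 19 lower (2.16% and 4.88%), in 5-HT neurons 2 were higher and 10 lower (1.64% and 3.48%), and in Oct/Tyr neurons 3 were higher and 20 lower (3.91% and 6.72%). In cholinergic neurons 8 were higher and 9 lower (1.41% and 1.22%), in glutamatergic neurons 6 and 5 (1.17% and 0.937%), and in GABAergic neurons 11 and 9 (1.18% and 1.45%). The members and gene lists were chosen with earlier results of these data known. These counts are thus no test of the members against other homeobox genes.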

How the data were processed

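The authors deposited, for each of 7 runs, whole-number UMI counts per gene and cell barcode, made per the labels with Cell Ranger 3.1.0 on BDGP6, with Scanpy 1.4.4 also named. The count matrices were used as deposited. Barcodes with under 200 genes or over 30% mitochondrial UMIs were left out (157482 of 164038 stayed), then 33847 doublets called at an expected 0.8% per 1000 cells. Cells were clustered (scikit-learn 1.9.0, igraph 0.11.9, 58 components, 15 neighbours, resolution 8) without the members and without genes that differed 2-fold between runs. A cluster was named when at least 3 markers of a type were 2-fold higher and in at least 10% of its cells. UMIs were summed per class and run and tested in edgeR 4.0.16 (R 4.3.3) with the run as a block over all genes, which pairs the classes because they come from the same library. The genes of the background include those used for clustering. DESeq2 1.42.0, other filters, scalings, resolutions, run subsets and depths were alternatives. The members named by rule were, per comparison, up to 10 called in each direction with the same direction in every run, by size of change, and the 10 gene pairs with the highest ratio. Others were named after their values were seen. The 4 hashtag rows listed for runs 5 to 7 were all at 0 and were not used. The edgeR step was tested on simulated data. The members and gene lists were chosen with earlier results of these data known.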

Additional observations from a re-analysis of the deposited data

Results flagged for a closer look

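Over 62 groups of 7 runs examined, the highest or lowest run stood far from the others in 3, where chance alone gives about 1 in 20 groups. *nub* had 72.4 CPM in serotonergic neurons of run 6, and the nearest run had 33.3 CPM. *unpg* had 5.35 CPM in cholinergic neurons of run 4, and the nearest run had 2.45 CPM. *Rx* had 25.8 CPM in glutamatergic neurons of run 6, and the nearest run had 19.4 CPM.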

How the results depend on the processing

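None of the 166 named single-gene results changed direction under the alternatives run. Members named by rule already had the same direction in every run, which made a change of direction unlikely. Of the 2766 alternatives of the 166 results, 2681 stayed on their side of the threshold and 85 lost the call. Of 434 alternatives for counts and shares, 16 moved by more than the limit. With library totals, chosen after seeing the data, 4 members were higher in glia. With called doublets kept, 2 were higher in DANs. With runs 5 to 7 alone, 9 members were lower in 5-HT neurons and 13 in Oct/Tyr neurons. Leaving out 1 run at a time gave 3 to 5 members higher in Oct/Tyr neurons (5 without replicate 4), and for runs with ZT8 flies 0 to 1 higher and 0 to 3 lower, the highest of both without run 5. By DESeq2, 2 members were lower in runs with ZT8 flies, where calls rest on the adjusted p alone. Without the replicate block the members higher and lower were 8 and 30 in glia, 3 and 21 in DANs, 7 and 16 in 5-HT neurons, 3 and 32 in clock neurons and 10 and 25 in the Oaz cluster, and the other comparisons kept their counts. Most of these member counts, here and in the sections above, come without the share of all genes called under the same alternative. They do not show whether members moved more than other genes. Thinned to 500 UMIs, the shares were 9.16% for *repo* in glia, 16% for *ey* in KCs, 24.1% for *Poxn* in ring neurons, 8.05% for *acj6* in cholinergic neurons, 21.1% for *scro* in DANs, 4.81% for *C15* in the Oaz cluster, 1.64% for *hbn* in glutamatergic neurons and 11.1% for *oc* in clock neurons. These follow from the depth kept. Serotonergic neurons were not named at resolution 4, and the Oaz cluster was not run at other resolutions.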
